A study of Mus musculus with 6 samples.

Results

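The genes described here are 8 mouse snoRNA host genes without a protein product: Gas5, Snhg1, Snhg3, Snhg5, Snhg6, Snhg7, Snhg8 and Snhg12. Binding of YTHDC1, a nuclear reader of m6A in RNA, was mapped by LACE-seq, in which the RNA bound by the protein is crosslinked with UV light, immunoprecipitated with an antibody against YTHDC1 and sequenced at the ends of its cDNA. Lists of peaks from 6 libraries were used, 4 from ASC-48 hr (activated satellite cells, sorted from muscle of Pax7 reporter mice and kept 48 hr in culture) and 2 from C2C12, a line of mouse myoblasts. The ASC material came as biological replicates B1 and B2, from each of which technical libraries T1 and T2 were made, and C2C12 as replicates 1 and 2, from more cells. The labels give WT for all 6 libraries, which says nothing of a reporter allele in the mice used for sorting, and no input or control immunoprecipitation was analysed here. The C2C12 libraries were named as biological replicates by the labels and as technical replicates by the study, so their spread may be technical.

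Members were found by gene symbol in the GENCODE vM1 annotation of mm9. Of the 8 symbols, 6 have an interval there, among 37310 annotated genes, and Snhg6 and Snhg8 do not. The 6 intervals add up to 19981 nt and hold 27 annotated snoRNA genes on the same strand, 20 of the C/D and 7 of the H/ACA family. In the files, a peak of an RNA is listed on the strand opposite to its gene, which is called the strand of the RNA below. On this strand 155 of the 178779 peaks of the 6 libraries lay in the members, and all 155 were wholly inside the intervals. On the other strand there were 0 member peaks in each library. A peak that touched a snoRNA was counted as snoRNA, otherwise as exon where it touched an exon of a spliced transcript, and otherwise as intron. Transcripts typed as retained introns were left out for this, unless a gene had no other spliced transcript.

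Most snoRNAs of mammals lie in introns of a host gene, which may encode a protein or, as here, not. The host is transcribed and spliced like an mRNA gene, and the introns are trimmed down to small nucleolar RNAs. C/D snoRNAs carry box C (TGATGA) near the 5′ end and box D (CTGA) near the 3′ end and guide 2′-O-methylation of rRNA, while H/ACA snoRNAs end a few bases after the letters ACA and guide pseudouridylation. Host transcripts such as Gas5 carry a 5′ terminal oligopyrimidine tract, and their spliced RNA is short-lived because translation exposes it to decay, whereas the snoRNAs are stable.

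Some bins with many reads in C2C12 are shown first, since the counts below rest on such bins. They are examples and not a ranking, as bins at Snora44 and Snora61 with more reads than some of these are not printed. Each of the printed bins is 20 nt of mm9 in the sense of the RNA. TGATGA is in capitals where it lies wholly in the bin. Of 19 member peaks of 1 bin found in both C2C12 replicates, only 2 hold TGATGA, and these are among those printed.

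SNORD75 in Gas5, chr1:162965981-162966000, plus strand: agcccatgatggtatgagag
SNORD27 in Snhg1, chr19:8799041-8799060, plus strand: aaatgacaagcatatggctg
SNORD31 in Snhg1, chr19:8800081-8800100, plus strand: ctgctcacccTGATGAactg
SNORD25 in Snhg1, chr19:8798481-8798500, plus strand: ccaccccctaTGATGAggac
Snora16a in Snhg12, chr4:131865441-131865460, plus strand: agagaaagaattttccttga

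Some C/D snoRNAs with a shared peak are given by their first 30 nt, with box C in capitals, to show where the bins lie in the RNA.

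SNORD75, chr1:162965981-162966010, plus strand: agcccatgatggtatgagagtagtggacag
SNORD27, chr19:8799021-8799050, plus strand: cacttaaTGATGAacaatgtaaatgacaag
SNORD31, chr19:8800084-8800113, plus strand: ctcacccTGATGAactgaataccgccccag
SNORD50 in Snhg5, chr9:88416409-88416438, minus strand: agtctaTGATGAtcctatcccgaacctgaa
SNORD50 in Snhg5, chr9:88416677-88416706, minus strand: agtctaTGATGAtcctatcccgaacctgaa

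The pair in Snhg5 are separate genes with the same name and the same first 30 nt, so reads from this stretch cannot be assigned to 1 of them. SNORD75 has no exact TGATGA in its first 30 nt. For H/ACA snoRNAs the 3′ end is shown, with the last ACA in capitals.

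Snora73a in Snhg3, last 30 nt, minus strand: ctgaggagacaaaccatgcaggaaACAgtt
Snora73b in Snhg3, last 30 nt, minus strand: ctgaggagacaaaccatgcaggaaACAaaa
Snora61 in Snhg12, last 30 nt, plus strand: tgtagagcagcaggccagactcagACAtgc
Snora17 in Snhg7, last 30 nt, minus strand: gaacgtctgaatgatttgtagcctgACAac

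Most peaks in the members touched a snoRNA. The numbers of member peaks were 8 in B1 T1, 18 in B1 T2, 26 in B2 T1, 31 in B2 T2, 34 in C2C12 replicate 1 and 38 in C2C12 replicate 2. Of these, 8, 18, 25, 29, 31 and 35 were in a snoRNA. Exon peaks numbered 0, 0, 1, 1, 2 and 3 in the same order, and intron peaks 0, 0, 0, 1, 1 and 0. Thus no library had more than 3 peaks in the exons of all 6 hosts. The lists differ in length, from 7925 peaks in B2 T1 to 71992 in C2C12 replicate 2, and in the lowest number of reads per bin that they list, from 4 in B2 T2 to 6 in C2C12. The sequencing depth behind them is unknown.

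**Figure D1:**
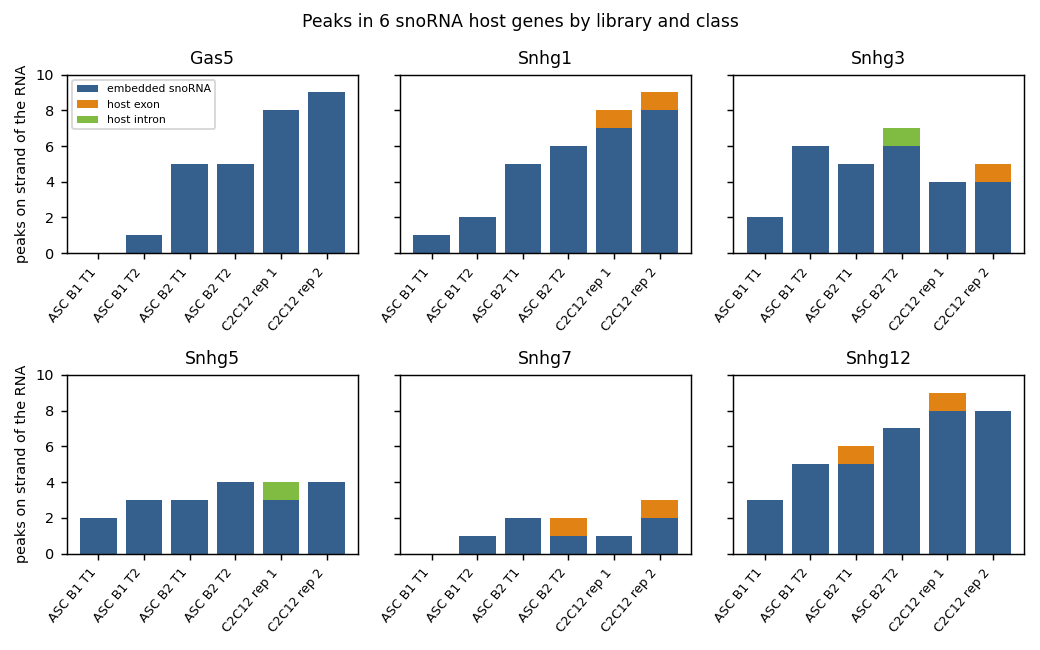
Number of peaks on the strand of the RNA (y axis) in each library (x axis) for the 6 annotated members, with colours for embedded snoRNA, host exon and host intron. Gas5 has 0 peaks in B1 T1 and 9 in C2C12 replicate 2, all on snoRNAs, while Snhg3 has 2 to 7 peaks in every library.

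Set against the length of each list, members took 0.986 peaks per 1000 in B1 T1 (95% exact binomial interval 0.426 to 1.94), 1.67 in B1 T2 (0.992 to 2.64), 3.28 in B2 T1 (2.14 to 4.80) and 1.59 in B2 T2 (1.08 to 2.26). In C2C12 they took 0.562 (0.389 to 0.785) and 0.528 (0.374 to 0.724). Intervals here and below cover counting error only. B2 T1 is the shortest list and yet has more member peaks than B1 T1, so the number of member peaks did not follow the length of the list in ASC-48 hr. As this is bulk material without a measure of RNA level, fewer cells of a type, less RNA per cell and less binding per RNA cannot be told apart, and the labelled cell types were not checked against markers.

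Peaks of C2C12 replicate 1 that overlapped a peak of replicate 2 on the same strand by at least 1 nt are called C2C12 shared peaks. There were 29 in the members, of which 28 were in a snoRNA, 1 in an exon and 0 in an intron. Every one of the 6 annotated members had at least 1, where 17.5% of 31939 annotated genes other than small RNA genes did, and 4.34% of 3779 spliced noncoding genes (lincRNA or processed transcript) outside the listed hosts. With p at most 0.00001 in both libraries, or at least 10 reads per bin, 4 members were left, without Snhg3 and Snhg7. Of the 29, Snhg12 had 7, Snhg1 7, Gas5 8, Snhg3 3, Snhg5 3 and Snhg7 1. Of the 860 nt under these peaks, 729 nt (84.8%) were snoRNA sequence, and 17 of the 29 peaks were wholly inside a snoRNA. Classed by the middle nucleotide instead, 24 were in a snoRNA and 5 in an exon.

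Members were found again in the other replicate more often than peaks at large, by counts alone. In replicate 1, 29 of 34 member peaks (85.3%, exact interval 68.9% to 95.05%) were met by a peak of replicate 2, against a background of 48% of 60540 peaks. In replicate 2 it was 30 of 38 (78.9%, 62.7% to 90.4%) against 40.4% of 71992. Both intervals lie above the background, but member peaks were also higher, with a median of 11 reads per bin in either C2C12 library against 7 over all peaks, and the part of height in the result was not tested.

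Per kb of sequence, C2C12 shared peaks in the members came to 10.9 in snoRNAs (95% exact Poisson interval 7.22 to 15.7; 28 peaks over 2578 nt), 0.0932 in exons (0.00236 to 0.519; 1 peak over 10730 nt) and 0 in introns (up to 0.553; 6673 nt). The snoRNA and exon intervals do not overlap. The exon and intron values cannot be separated at these counts. The exon value depends on the touch rule, since 5 peaks were in exons when classed by the middle nucleotide. The exons counted here leave 0 nt as intron in Snhg1 and 358 nt in Gas5, so the split of exon from intron means little for these 2 genes.

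The other listed hosts without a protein product were Snhg4, Snhg9, Snhg11, Snhg15, Snhg16, Snhg17, Snhg20, Dancr and Zfas1, of which vM1 types 3 as protein-coding (Snhg11, Snhg16 and Zfas1). All 9 had at least 1 C2C12 shared peak, and 20 of their 22 peaks were in snoRNAs, at 9.42 per kb (5.75 to 14.5). The interval overlaps that of the members. In 264 protein-coding genes that host snoRNAs, 172 of 832 peaks (20.7%) were in snoRNAs, 349 in exons and 311 in introns. Their snoRNA density was 4.04 per kb (3.45 to 4.69), below the interval of the members, and their exon density was 0.287 per kb (0.258 to 0.319), within the wide interval of the members' exons. So the data show more peaks per kb of snoRNA in the members than in protein-coding hosts, and leave unresolved whether the exons differ. The difference was not tested beyond these intervals, and the sets were not matched by snoRNA family. The level of each RNA was not measured here.

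**Figure D2:**
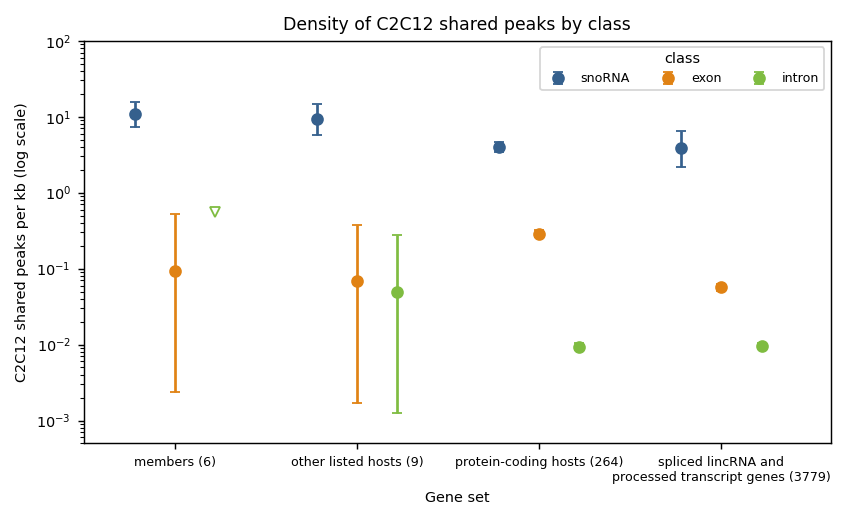
C2C12 shared peaks per kb (y axis, log scale) in snoRNAs, exons and introns of 4 gene sets (x axis), as points with 95% exact Poisson intervals. The open triangle is the upper limit of 0.553 for the members' introns, where there were 0 peaks, and the snoRNA points of the members and the other listed hosts stand at 10.9 and 9.42 per kb.

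Of the 27 embedded snoRNAs, 23 (85.2%, exact interval 66.3% to 95.8%) had a C2C12 shared peak, against a background of 13.8% of the 1525 snoRNA genes outside the members. By library, 7 and 11 of the 27 had a peak in the T1 and T2 lists of B1, 18 and 20 in those of B2, and 24 and 25 in C2C12. The background in the same order was 3.54%, 7.87%, 9.7%, 14.6%, 16.3% and 16.6% of the 1525 genes. How many of those genes are transcribed in these cells was not measured. The sets also differ in family, with 20 C/D and 7 H/ACA snoRNAs in the members against 326 and 1024 outside. Outside, C/D genes had a peak in 27.6% and 28.8% in the C2C12 libraries, and H/ACA genes in 10.3% and 10.4%. In the members it was 90% and 95% of C/D snoRNAs, and 85.7% of H/ACA snoRNAs in each C2C12 library. Across all libraries, 7 of the 27 snoRNAs were called in every one and 2 in none. In the protein-coding hosts 139 of 352 snoRNAs (39.5%) had a C2C12 shared peak, and in the other listed hosts 14 of 18 (77.8%).

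**Figure D3:**
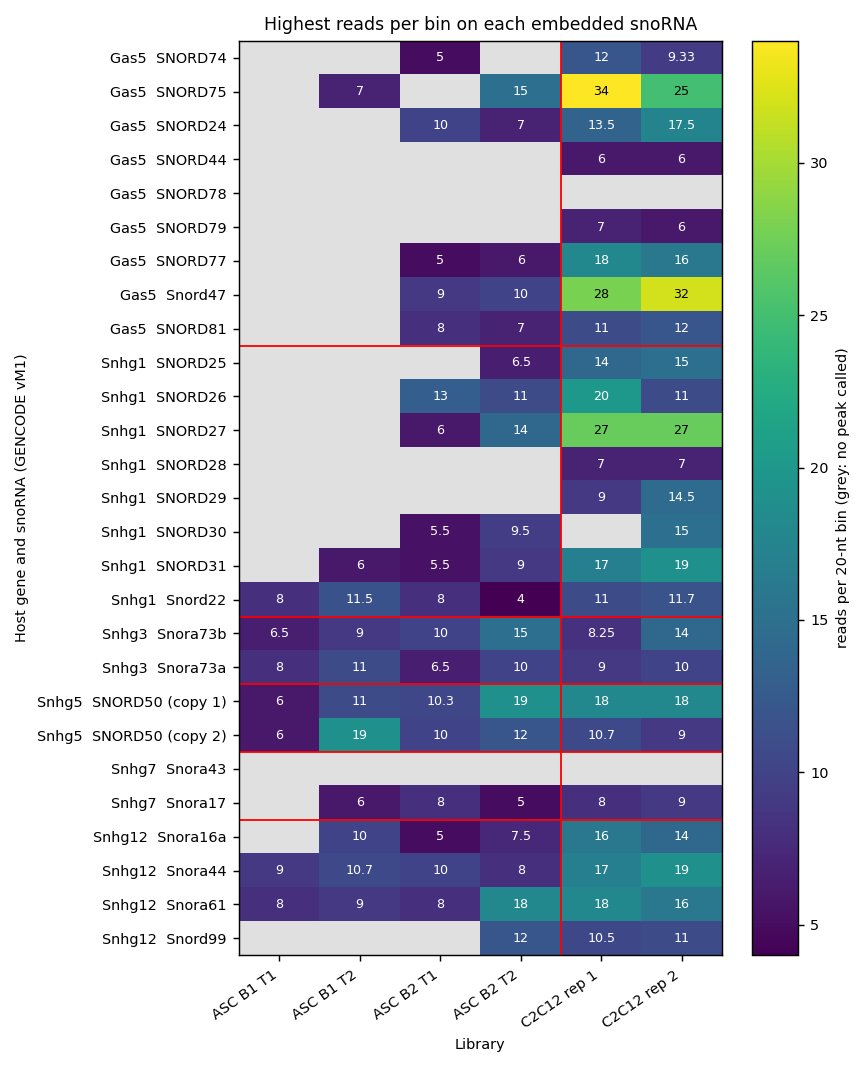
Highest reads per bin of a peak (colour and printed value) on each of the 27 embedded snoRNAs in the 6 libraries (columns). Rows are grouped by host gene, grey marks where no peak was called, and values are averaged over the bins of wider peaks. Values are not scaled for the size of the library, so rows can be compared within a column. Snord47 and SNORD75 of Gas5 reach 32 and 34 in C2C12, while the 4 snoRNAs of Snhg3 and Snhg5 are called in all 6 libraries.

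Reads per bin are given below as deposited, without scaling, and the direction between the cells depends on the scale. Of the 21 snoRNAs called in both ASC-48 hr and C2C12, 12 had C2C12 values above all ASC values, 8 overlapped and 1 was below. Per 1000000 reads in all listed peaks of a library, a scale chosen after the data were seen that is not the sequencing depth, C2C12 was below in all 21. Snord47 had 153 and 89.5 in the libraries of B2 and 53.5 and 52.7 in C2C12 on that scale, where its reads per bin run the other way. No higher or lower level in C2C12 than in ASC-48 hr is therefore read from the values that follow.

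Gas5, the growth arrest-specific transcript, hosts 9 C/D snoRNAs within chr1:162964553-162968670 on the plus strand. Snord47, a guide for the large-subunit rRNA, had a C2C12 shared peak of 28 and 32 reads per bin (30 ± 2.83, SD, n = 2). In ASC-48 hr its highest bin held 9 and 10 reads in the libraries of B2, and B1 had no peak there. SNORD75 had 34 and 25 (29.5 ± 6.36), so the order of these 2, the highest by their means, cannot be told from the replicates. In C2C12 these are the highest of the members by their means, on the scale of reads per bin. SNORD27 of Snhg1, at 27 and 27, lies between the replicates of SNORD75, so that order cannot be told either. Only 0.202% of the peaks of C2C12 replicate 1 and 0.0778% of those of replicate 2 were as high as the Snord47 peak.

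The other snoRNAs of Gas5 had from no call to 18 reads per bin. SNORD77 had 18 and 16 reads per bin and SNORD24 13.5 and 17.5, and these were called in B2 T1 and B2 T2 at 5 to 10. SNORD81 (11 and 12) and SNORD74 (12 and 9.33) stood lower. SNORD79 (7 and 6) and SNORD44 (6 and 6) were at or next to 6, the lowest number listed in C2C12. SNORD78 had no peak in any of the 6 libraries. Neighbouring snoRNAs of the same transcript thus ranged from no call to more than 30 reads per bin. No Gas5 peak of any library was free of snoRNA sequence, but the C2C12 shared peaks at Snord47, SNORD77 and SNORD44 lay mostly outside it, with 8 or 9 of their 20 nt in the snoRNA, and none of its C2C12 shared peaks lay in the stretch that Zbtb37 overlaps on the other strand.

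Snhg1 hosts 8 C/D snoRNAs within chr19:8797986-8800932 on the plus strand, most of them guides for rRNA methylation. SNORD27 had 27 and 27 reads per bin in C2C12 (27 ± 0, n = 2), against 6 in B2 T1 and 14 in B2 T2. SNORD31 had 17 and 19 (18 ± 1.41), SNORD25 14 and 15 (14.5 ± 0.707) and SNORD29 9 and 14.5 (11.8 ± 3.89). SNORD26 had 20 and 11 (15.5 ± 6.36), the pair with the largest difference between replicates, together with SNORD75. The replicates of SNORD26 span those of SNORD31 and SNORD25, which do not overlap each other.

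SNORD28 was called at 7 reads per bin in each C2C12 library, but in neighbouring bins that do not overlap, and SNORD30 in replicate 2 alone, at 15, as well as in B2 T1 (5.5) and B2 T2 (9.5). Snord22, which is longer than the other C/D members at 126 nt, was the only snoRNA of Snhg1 called in all 6 libraries, at 8, 11.5, 8 and 4 in ASC-48 hr and 11 and 11.7 in C2C12.

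Snhg12 hosts Snora16a, Snora44, Snora61 and Snord99 within chr4:131864593-131866939 on the plus strand. Its highest C2C12 shared peaks were at Snora44, with 17 and 19 reads per bin (18 ± 1.41), and Snora61, with 18 and 16 (17 ± 1.41). Snora16a reached 16 and 14 (15 ± 1.41) and Snord99 10.5 and 11 (10.8 ± 0.354). The 3 H/ACA snoRNAs each had 2 separate shared peaks, whereas Snord99 had 1. The replicates of Snora61 overlap those of Snora44 and of Snora16a, and only the latter pair do not overlap each other.

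Snora61 and Snora44 were called in all 4 ASC libraries. At chr4:131866181-131866200 of Snora61, ASC-48 hr had 8, 9, 8 and 18 reads per bin (10.8 ± 3.18, SD of the means of B1 and B2, n = 2), with B2 T2 above the other 3. The C2C12 shared peaks of Snora61 lay on either side of this bin, at chr4:131866141-131866160 and chr4:131866221-131866240. The bin itself was called in C2C12 replicate 1, at 11 reads per bin, and not in replicate 2. Snora44 reached 9, 10.7, 10 and 8 in ASC-48 hr, and is not among the ASC shared peaks described below, which keep the intervals of the T1 lists; with those of the T2 lists it is, at chr4:131865861-131865920.

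Snhg3 hosts the 205-nt H/ACA RNAs Snora73b and Snora73a, known as U17, which act in pre-rRNA cleavage. The highest peaks of Snora73a had 8, 11, 6.5 and 10 reads per bin in ASC-48 hr and 9 and 10 in C2C12. For Snora73b they had 6.5, 9, 10 and 15, and 8.25 and 14. The gene lies at chr4:131903929-131909601 on the minus strand and overlaps the Rcc1 gene of the same strand, so its 3 C2C12 shared peaks could be counted for Rcc1 as well.

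Snhg5 (chr9:88415894-88417721, minus strand) hosts the 2 genes named SNORD50. The copy at chr9:88416367-88416438 had 18 and 18 reads per bin in C2C12, and 6, 11, 10.3 and 19 in ASC-48 hr. At the other copy the values were 10.7 and 9 in C2C12 and 6, 19, 10 and 12 in ASC-48 hr. Snhg7 (chr2:26492697-26495764, minus strand) hosts Snora17, with 8 and 9 reads per bin in C2C12 (8.5 ± 0.707) and 6, 8 and 5 in 3 ASC libraries, and Snora43, which had no peak in any library.

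Likeness between C2C12 replicates was high for the 24 snoRNAs called in both. The highest reads per bin gave a Pearson r of 0.867 on the log2 scale and a Spearman rho of 0.821, as a description over snoRNAs that share 2 libraries and 6 hosts. For 17 of the 24 the replicates differed by no more than 2 reads, and the largest difference was 9. Asking for a call in both leaves out SNORD30, at 15 in replicate 2 and not called in replicate 1. It keeps SNORD28, whose bins in the replicates do not overlap.

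Many of these RNAs have copies elsewhere in the genome, and the authors let a read be placed at up to 10 positions, with up to 2 mismatches. Copies were counted here as exact 20-nt matches. Single-copy bins were therefore not checked for reads of near copies. Of the 29 C2C12 shared peaks, 18 had only bins whose 20-nt sequence occurs once in mm9 (8 in Gas5, 6 in Snhg1 and 4 in Snhg12). The other 11 included every shared peak of Snhg3, Snhg5 and Snhg7. In the bins of those 11 peaks whose sequence occurs more than once, reads of this and of other copies cannot be told apart. Snora73a, Snora73b and Snora17 also had single-copy bins, but none of these made a shared peak by itself. An example is chr2:26494721-26494740 of Snora17, called in B1 T2 (6) and C2C12 replicate 2 (7). The single-copy bin chr4:131908721-131908740 of Snora73a lay in a C2C12 shared peak, next to a bin with 3 copies.

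In ASC-48 hr, peaks of B1 (T1 with T2) that overlap peaks of B2 (T1 with T2) are called ASC shared peaks, with the interval of the T1 list. Members had 4 of the 2443, in Snora61, Snora73a, Snora73b and a SNORD50. These fall in 3 of the 6 annotated members, Snhg3, Snhg5 and Snhg12, where 1.94% of 31939 genes and 1.22% of 3779 spliced noncoding genes had such a peak. By snoRNA it was 4 of 27 (14.8%, exact interval 4.19% to 33.7%) against 2.03% of the other snoRNA genes. That background is not matched by snoRNA family. Gas5, Snhg1 and Snhg7 had none. Of the ASC shared member peaks, only the one in Snora61 lay wholly in single-copy sequence, and the others may hold reads of other copies. At the SNORD50 peak chr9:88416361-88416380 the values were 6, 8, 10.3 and 11 (8.83 ± 2.59, SD of the means of B1 and B2, n = 2). The 10.3 of B2 T1 is the mean of a wider peak, chr9:88416361-88416420. Values for Snora73a were 8, 11, 6.5 and 10 (8.88 ± 0.884) and for Snora73b 6.5, 7, 6.67 and 7.67 (6.96 ± 0.295).

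The biological replicates differed more than this small number shows. B1 alone (T1 with T2) had 7 member peaks, and B2 alone (T1 with T2) had 21. Gas5 had 0 in B1 and 4 in B2, Snhg1 1 and 4, Snhg3 2 and 5, and Snhg12 3 and 5. With 2 biological replicates, a difference between C2C12 and ASC-48 hr of the size seen between B1 and B2 cannot be read as one between the cells.

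Most C2C12 shared member peaks were nevertheless present in some ASC list. Of the 29, 22 (75.9%, exact interval 56.5% to 89.7%) overlapped a peak of at least 1 ASC library, 18 of at least 2, 11 of at least 3 and 3 of all 4. Over all 29087 C2C12 shared peaks the shares were 14.5%, 9.29%, 6.82% and 5.18%. The last 3 (10.3%, 2.19% to 27.4%) are also among the ASC shared peaks, where 5.23% of all C2C12 shared peaks are. That background lies inside the interval.

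The H/ACA and C/D families were called to different extents across libraries. In the 4 ASC libraries, in the order used above, a peak was present on 3, 5, 12 and 14 of the 20 C/D snoRNAs, and in C2C12 on 18 and 19. For the 7 H/ACA snoRNAs it was 4, 6, 6 and 6, and 6 and 6. The number of C/D snoRNAs with a peak thus varied from 3 to 19, while the number of H/ACA snoRNAs was 6 in 5 of the 6 libraries, which is all of them but Snora43. This steady number rests on sequences with copies elsewhere: with bins of a single copy in the genome, an alternative chosen after the data were seen, H/ACA snoRNAs with a peak numbered 1, 4, 5 and 2 in ASC-48 hr and 3 and 3 in C2C12. The C/D numbers were then 1, 3, 10 and 12, and 16 and 17. Among snoRNA genes outside the members, C/D genes with a peak ranged from 5.52% in B1 T1 to 28.8% in C2C12 replicate 2 and H/ACA genes from 1.86% to 10.4%, so there both families had more called genes in C2C12 replicate 2 than in B1 T1.

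**Figure D4:**
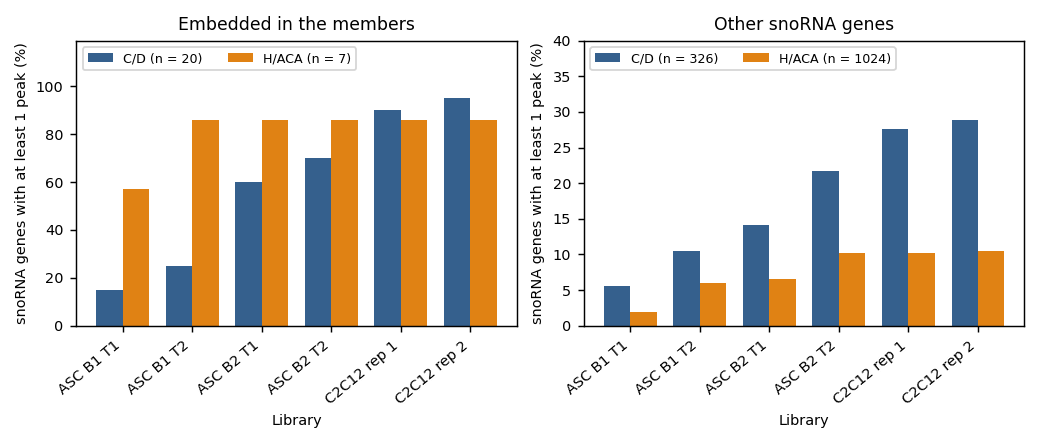
Percentage of snoRNA genes with at least 1 peak (y axis) in each library (x axis), for C/D and H/ACA snoRNAs of the members (left) and of all other snoRNA genes (right, with a shorter y axis). In the members the C/D bars run from 15% to 95% and the H/ACA bars from 57.1% to 85.7%, or from 14.3% to 71.4% when bins with copies elsewhere in the genome, which are drawn here, are left out.

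By reads, H/ACA snoRNAs held 64.6%, 64.8%, 41.9% and 47.8% of the reads in member snoRNA peaks in the ASC libraries and 33.4% and 33.6% in C2C12. Every ASC value lies above both C2C12 values. With single-copy bins the shares were 33.3%, 57.1%, 34.8% and 29.0% in ASC-48 hr and 18.8% and 13.9% in C2C12, which also do not overlap. The ASC values are technical pairs from B1 and B2. Over all bins B1 and B2 lay further apart than B2 and C2C12, so the shares are not read as a difference between the cells. Of the other snoRNA genes the shares were 53.1%, 64.1%, 55.8% and 57.3%, and 49.4% and 46.3%. As each peak list has its own lower limit, C/D peaks too low to be called in ASC-48 hr are missing from these shares, and their part in the result was not tested.

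The position of the highest peak was described for each family. For the 17 C/D snoRNAs with a C2C12 shared peak, the 5′ edge of the highest one had a median of -1 nt from the annotated 5′ end (range -15 to 20), and 16 of the 17 began before position 20. Snord47, SNORD44 and SNORD77 began 11 or 12 nt upstream, so that 8 or 9 of the 20 nt of the bin were snoRNA. In other C/D genes the median was 8.5 nt, and 55 of 78 (70.5%) began before position 20. For the 6 H/ACA snoRNAs the median was 53 nt (range 14 to 81), against 40 nt for 84 other H/ACA genes. Taking the most 5′ shared peak instead of the highest, the median of the H/ACA members was 9.5 nt and 4 of the 6 began before position 20, so they too had peaks near the 5′ end. The grid of 20-nt bins is fixed on the chromosome and sets the edge to within a bin.

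**Figure D5:**
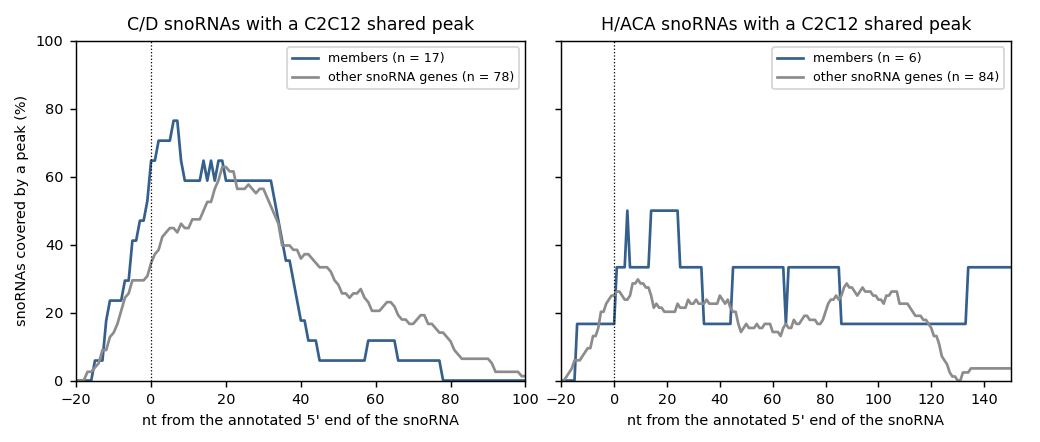
Percentage of snoRNAs covered by a C2C12 shared peak (y axis) at each distance from the annotated 5′ end in nt (x axis; the dotted line is 0), for members and other snoRNA genes that have a shared peak. C/D members (17 snoRNAs) are covered mostly near the 5′ end, while H/ACA members (6 snoRNAs) show no such single stretch.

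Each snoRNA was cut into 3 parts of equal length. In C/D members with a C2C12 shared peak, such peaks covered on average 67.1% of the 5′-most part, 27.8% of the middle and 7.53% of the 3′-most. In other C/D genes the same parts had 49.8%, 43.0% and 18.0%. H/ACA members had 28.3%, 43.7% and 19.6%. In C2C12 shared peaks, the lower cover of the 3′ part was shared by C/D snoRNAs in and outside the members. It did not hold in B1 T1, where members had 41.1%, 3.33% and 22.2% and other C/D genes 19.4%, 23.8% and 23.4%. In B2 T1 the 5′-most and middle parts of the C/D members were close, at 42.3% and 42.0%. In the ASC libraries the 3 to 14 C/D members with a peak had a median edge of 58, 5, 4 and 1 nt.

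The letters of the boxes were then searched. Box C, searched as TGATGA in the sense of the RNA, was in the first 30 nt of 16 of the 20 C/D members (247 of 326 other C/D genes, 75.8%), and lay wholly inside a C2C12 shared peak in 7. Box D, searched as CTGA, was in the last 20 nt of all 20, and ACA was in the last 10 nt of 6 of the 7 H/ACA members, with Snora44 as the exception. Among C2C12 shared peaks of 1 bin, TGATGA was in 2 of 19 in the members (10.5%) and in 0.435% of 25512 others. GGACT, the letters most often found around m6A in mRNA, was in 0 of 19 and in 1.41% of the others, and the shorter GGAC in 2 of 19 (10.5%) and 5.06%. GGACT occurred in 1 of the 27 snoRNAs, Snord99. A match or its absence in these windows says nothing about whether the RNA is modified. The members were chosen as snoRNA hosts and box C is part of C/D snoRNAs, so nothing is read from the TGATGA shares. Peaks on other C/D genes were not searched apart.

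Outside the snoRNAs, 6 places had a peak in at least 1 library. Snhg1 had one in its exon, 115 nt from the gene start, at chr19:8798101-8798140, with 9.5 and 7.5 reads per bin in C2C12 (8.5 ± 1.41) and none in ASC-48 hr. This is the only C2C12 shared peak of the members outside a snoRNA, and 1 of its 2 bins has a sequence that occurs 39 times in the genome. Snhg12 had a bin 48 nt from its start, at chr4:131864641-131864660, called in B2 T1 (8) and C2C12 replicate 1 (9). Snhg7 had an exon bin 364 nt before the gene end, at chr2:26493061-26493080, called in B2 T2 (4) and C2C12 replicate 2 (10). These places near the start of Snhg1 and Snhg12 were each called in 2 libraries.

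The remaining 3 were called once each, in an exon of Snhg3 (7 in C2C12 replicate 2), an intron of Snhg3 (4 in B2 T2) and an intron of Snhg5 (6 in C2C12 replicate 1). They lay 177, 127 and 55 nt from the nearest snoRNA, at or within 1 read of the lowest number their library lists.

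Snhg8 was placed by its promoter, because vM1 does not list it. The 300 nt around its start in the RefSeq table (GRCm38) matched mm9 exactly once, with the start at chr3:123211254 on the minus strand. The RefSeq gene length of 785 nt puts the gene at chr3:123210470-123211254, which holds the snoRNA gene AC124005.1 at chr3:123210855-123210984. The bin chr3:123210941-123210960 there had 8 reads in B1 T2, 5 in B2 T1, 8 in B2 T2, and 12 and 12 in C2C12. A second bin, chr3:123210861-123210880, had 4 in B2 T2 and 7 and 7 in C2C12. There was no peak in B1 T1, none outside the snoRNA and 0 on the other strand. Snhg8 is not counted among the annotated members. For Snhg6 the promoter had no exact match, and the gene is not analysed here.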

How the data were processed

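Members, gene lists and tests were chosen with earlier results of these data known. Per the submitters' processing notes, reads were trimmed with cutadapt 1.15 and placed on mm9 with Bowtie 1.2.3; the authors allowed up to 10 positions per read and called peaks in each library with Piranha in 20-nt bins at a p threshold of 0.001. The deposited signal of a peak is its number of reads per bin, not normalized and averaged over wider peaks, and it may hold PCR copies, since removal of duplicate reads is not given in the sources used here, and the deposited p-value is Piranha's, unadjusted. The lists give no library totals. Overlaps, classes and copy numbers were computed in Python 3.11.15 with numpy 2.4.6, scipy 1.17.1 and pysam 0.24.0, plots were made with matplotlib 3.10.9, and the code was tested on simulated peaks. Genes are GENCODE vM1; promoters and synonyms are RefSeq, GRCm38. All annotated members, every embedded snoRNA with a shared peak, every ASC shared member peak and the highest C2C12 shared peak per member and class were named by rule. No test across features was run; shares carry exact Clopper-Pearson and densities exact Poisson intervals at the 95% level. Each C2C12 list was also used alone, and overlap, p-value, read, copy and class rules were changed. The sequence of 1 snoRNA is not reported here.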

Additional observations from a re-analysis of the deposited data

Results flagged for a closer look

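For Snora61 of Snhg12, the highest number of reads per bin in B2 T2 was 18, apart from the other 3 ASC libraries at 8, 9 and 8, its own technical replicate B2 T1 among them. It was the only one of 21 checked member values to stand so far from the rest by Dixon's criterion. The checked values were peaks and reads per member, and highest reads of snoRNAs called in all 4 ASC libraries. Chance alone exceeds this criterion in about 1 of 20 groups of independent values. The ASC libraries are technical pairs from B1 and B2, so this rate need not hold here.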

How the results depend on the processing

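No paired analysis was possible because no result comes from a test, and the same replicate number stands for different cells in the 2 groups. Of 68 alternative values for 21 results, 42 stayed within 1.5 times the main value, or within 1 SD for the H/ACA shares. The share on the strand of the RNA was 100% throughout. With 0 member peaks on the other strand in each library it could not change, and its alternatives are among the 42. With p at most 0.00001 in both C2C12 libraries, 13 member peaks stayed, 13 in snoRNAs and 0 in exons. With at least 10 reads per bin, the numbers were 18, 18 and 0, and with 20-nt sequences that occur once they were also 18, 18 and 0, in 3 members (Gas5, Snhg1 and Snhg12) instead of 6. The first 2 settings left 4 members each, without Snhg3 and Snhg7. Classing a peak by its middle nucleotide gave 5 exon peaks. Leaving out a C2C12 replicate gave 34 to 38 peaks in all, 31 to 35 in snoRNAs, 2 to 3 in exons and 0 to 1 in introns. ASC shared member peaks fell from 4 to 1 with p at most 0.00001, were 7 to 21 when a biological replicate was left out (7 in B1 alone, 21 in B2 alone), were 5 with the intervals of the T2 lists (chosen after seeing the data), and were 44 when a call in any of the 4 libraries was enough. With single-copy sequences, an alternative chosen after seeing the data, the mean H/ACA share of reads moved from 33.5% to 16.3% in C2C12 and from 54.8% to 38.6% in ASC-48 hr, and H/ACA snoRNAs with a peak fell from 6 to 3 in each C2C12 library. For the changes not set by the stricter rule itself, the cause was not tested. Scaled by the reads in listed peaks, also chosen after seeing the data, C2C12 was below ASC-48 hr for 21 of 21 snoRNAs called in both. Depth is unknown, and peaks under 4 to 6 reads per bin are not listed.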
